A study of Homo sapiens with 2 samples.

Results

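The genes described here are 30 recurrent drivers of myeloid malignancy or their neighbours. They comprise 29 protein-coding genes and WT1-AS, the antisense RNA gene beside WT1, out of 58347 genes in the table. They were chosen by symbol, and all 30 were found by their Ensembl identifiers in GENCODE 29. They were grouped by function into 10 epigenetic regulators, 4 cohesin genes, 7 signalling genes, 6 transcription factors, the antisense RNA gene and 2 others, NPM1 and DDX41. The measurement was eCLIP, which sequences RNA that ultraviolet light has fixed to a protein and an antibody has pulled down, here U2AF2. The samples formed 1 group of 2 biological replicates of untreated HEL cells, a human erythroleukemia line. No input library was used here, so every value is a level and none is an enrichment.

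U2AF2 and U2AF1 form the splicing factor U2AF. U2AF2 binds the run of pyrimidines just upstream of a 3' splice site, the junction where an intron ends and the next exon begins, and U2AF1 reads the AG at the intron end. Mutations of splicing factors recur in myelodysplastic syndromes and acute leukemias, together with mutations of the driver genes described here. Those drivers set DNA methylation and histone marks, hold sister chromatids together, carry growth factor signals or direct blood cell transcription.

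The gene counts summed to 995428 in replicate 1 and to 1350116 in replicate 2. Between 2.60% and 2.66% of the uniquely mapped reads were counted on genes. CPM below are counts scaled to library size. A gene with no count could still lie at up to 2.98 CPM in replicate 1 and 2.25 CPM in the deeper replicate 2, which is where 3 counts would put it. These limits cover counting error only. The 7 erythroid marker genes held 35 and 75 counts in replicates 1 and 2, the 4 megakaryocyte genes 4 and 9, the 2 T cell genes 0 and 1 and the 2 B cell genes 7 and 14, and PF4 was at 0 in both. These counts need not measure RNA level. The strand setting of the counting is not given in the sources used here. Which gene of an overlapping pair the reads came from is therefore uncertain throughout.

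The drivers held few reads on their own rows. Together they held 287 counts in replicate 1 and 465 in replicate 2, which was 0.0288% and 0.0344% of the gene counts. The median over the 29 coding drivers was 11 counts over both libraries and 1.34 counts per kb of merged exon, against 4 counts and 0.913 per kb over all 19817 protein-coding genes. On the log2 CPM scale the medians were 2.69 and 1.78. In both libraries, 9 of the 30 genes held 10 counts or more. Of the coding drivers, 8 of 29 (27.6%) reached that level, near the 24.8% of all protein-coding genes that did. In replicate 2 alone, the deeper library, 14 of the 30 genes held 10 counts or more.

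**Figure D1:**
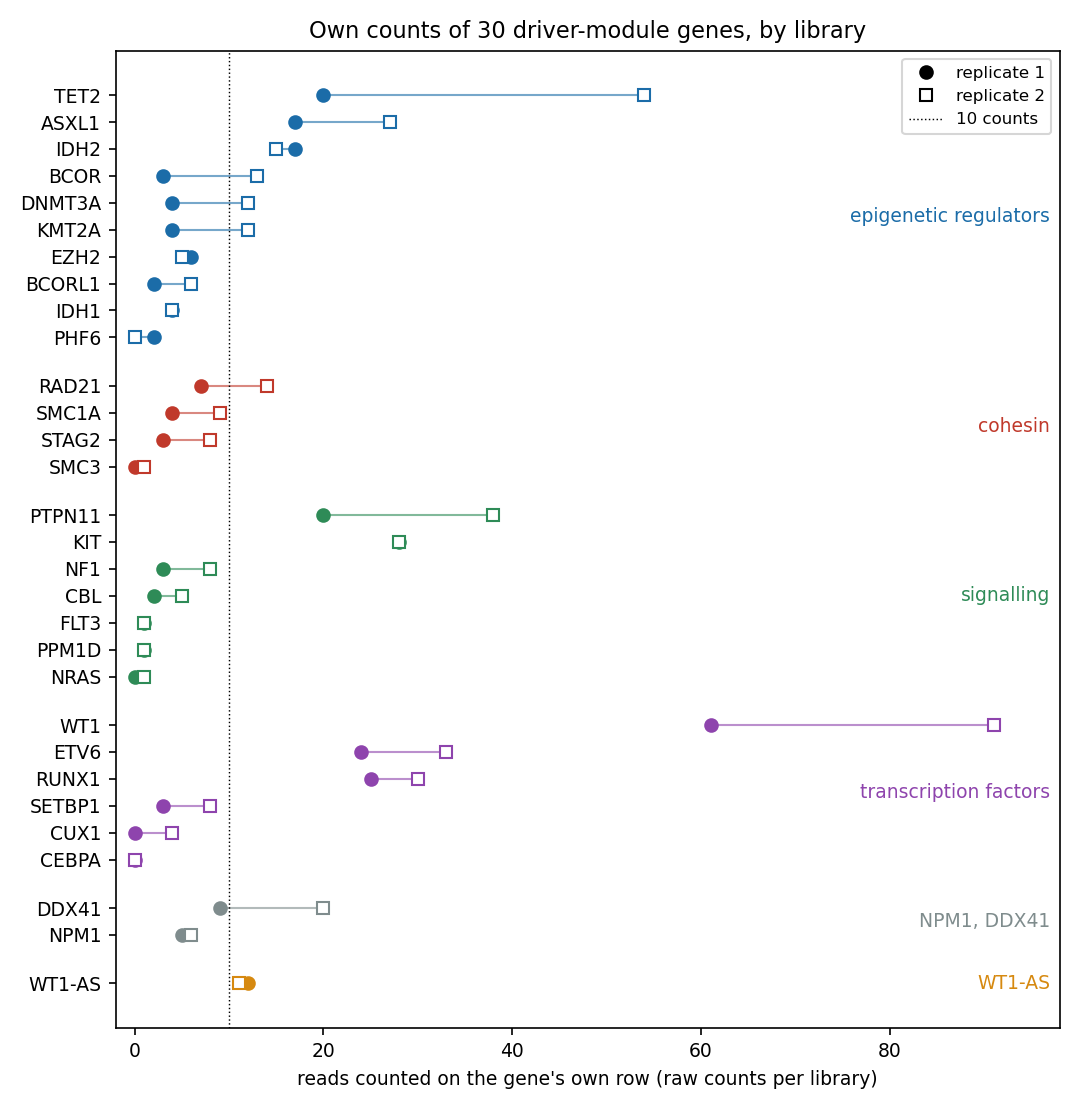
Raw counts on the own row of each of the 30 genes, with filled circles for replicate 1, open squares for replicate 2 and colors for the functional groups. WT1 lies farthest right with 61 and 91 counts, and most other genes lie left of 40 in both libraries.

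Among the epigenetic regulators, TET2 held the most counts. TET2 (chromosome 4, 105145875 to 105279816, plus strand, GRCh38), an enzyme that oxidizes methylated cytosine, held 20 counts in replicate 1 and 54 in replicate 2. Its level was 30.2 ± 14.6 CPM (SD, n = 2), so its replicates differed more than those of any other driver on this scale. ASXL1, a cofactor of the histone H2A deubiquitinase BAP1, held 17 and 27 counts, and IDH2, the mitochondrial isocitrate dehydrogenase, 17 and 15. Per kb of exon IDH2 led this group with 11.4 counts over both libraries, TET2 held 4.49 and ASXL1 3.22. These 3 were the epigenetic regulators that reached 10 counts in both libraries, and no gene lay opposite the exons of any of them.

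The other epigenetic regulators held less. DNMT3A, a de novo DNA methyltransferase, held 4 and 12 counts, and BCOR, a corepressor subunit of a Polycomb complex, 3 and 13. EZH2, the methyltransferase subunit of Polycomb repressive complex 2, held 6 and 5. IDH1, the cytosolic isocitrate dehydrogenase, held 4 in each library, BCORL1, a relative of BCOR, 2 and 6, and PHF6, a chromatin-binding PHD finger protein gene, 2 and 0. Over both libraries these 6 genes held at most 2.43 counts per kb of exon, the value of EZH2.

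KMT2A lay opposite the densest row of any driver. KMT2A (chromosome 11, 118436464 to 118526832, plus strand), the histone H3 lysine methyltransferase gene rearranged in acute leukemias, held 4 counts in replicate 1 and 12 in replicate 2. The antisense RNA gene AP001267.3 (chromosome 11, 118511911 to 118531094, minus strand) held 361 and 496, or 365 ± 9.89 CPM (SD, n = 2). Summed over both libraries, AP001267.3 held 813 counts per kb of exon and KMT2A 0.511. Of the 1054 exonic bases of AP001267.3, 317 lay over exons of KMT2A and 571 within its span. Its other exons lay opposite TTC36, with 330 bases over that gene's exons, and TMEM25, with 54. TTC36 held 1 and 0 counts of its own and TMEM25 4 and 4. A count per gene does not place reads along it, so the part of the AP001267.3 reads that lay opposite KMT2A was not measured.

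The exons of AP001267.3 covered 3 of the 42 annotated 3' splice sites of KMT2A. These sites are shown because they lie inside a region counted for the opposite gene. Whether any of that gene's reads came from U2AF2 at these sites was not tested. Other drivers with such sites were IDH1, CBL, STAG2 and RAD21, with 1 each, so 7 sites in 5 drivers were found. Each sequence below runs 5' to 3' on the strand of the driver, with the last 20 intron bases and the first 3 exon bases. It was read from the opposite-strand GENCODE 29 transcript (GRCh38) and reverse complemented. Capitals mark the longest unbroken run of C and T in the intron part, or the first of equal runs, as in IDH1. The sites lie at chr11:118511931-118511953, chr11:118519598-118519620 and chr11:118521268-118521290 (KMT2A, plus strand), chr2:208255587-208255609 (IDH1, minus strand), chr11:119313398-119313420 (CBL, plus strand) and chrX:124422378-124422400 (STAG2, plus strand).
KMT2A, first site: ttttctttaTTTCCTTTCagatg
KMT2A, second site: ggtgcttctgaTTCTTCTaggtg
KMT2A, last site: CTTTTCCatctttgtcctaggtc
IDH1: TTTTCCatcctttgcattaggca
CBL: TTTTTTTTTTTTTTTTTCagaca
STAG2: TTTCCTCTCgtctgtttcagcta

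All 6 sites printed had an AG at the intron end. The RAD21 site, inside UTP23, the opposite row with the most counts, is not among those printed. The KMT2A sites held 17, 13 and 16 pyrimidines among their 20 intron bases, the IDH1 site 15, the CBL site 18 and the STAG2 site 16. Over the 5053 such sites of all protein-coding genes that could be read in full, the median was 14 and the quartiles 12 and 15, and 99.4% ended in AG. The CBL site carried the longest run, 18 bases, against a median of 7. The counts of the rows opposite the other printed sites cover whole genes and do not place reads at these sites. MCAM, opposite the CBL site, held 12 and 18 counts, IDH1-AS1, opposite the IDH1 site, 3 and 1, and TENM1, opposite the STAG2 site, 0 in both.

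**Figure D2:**
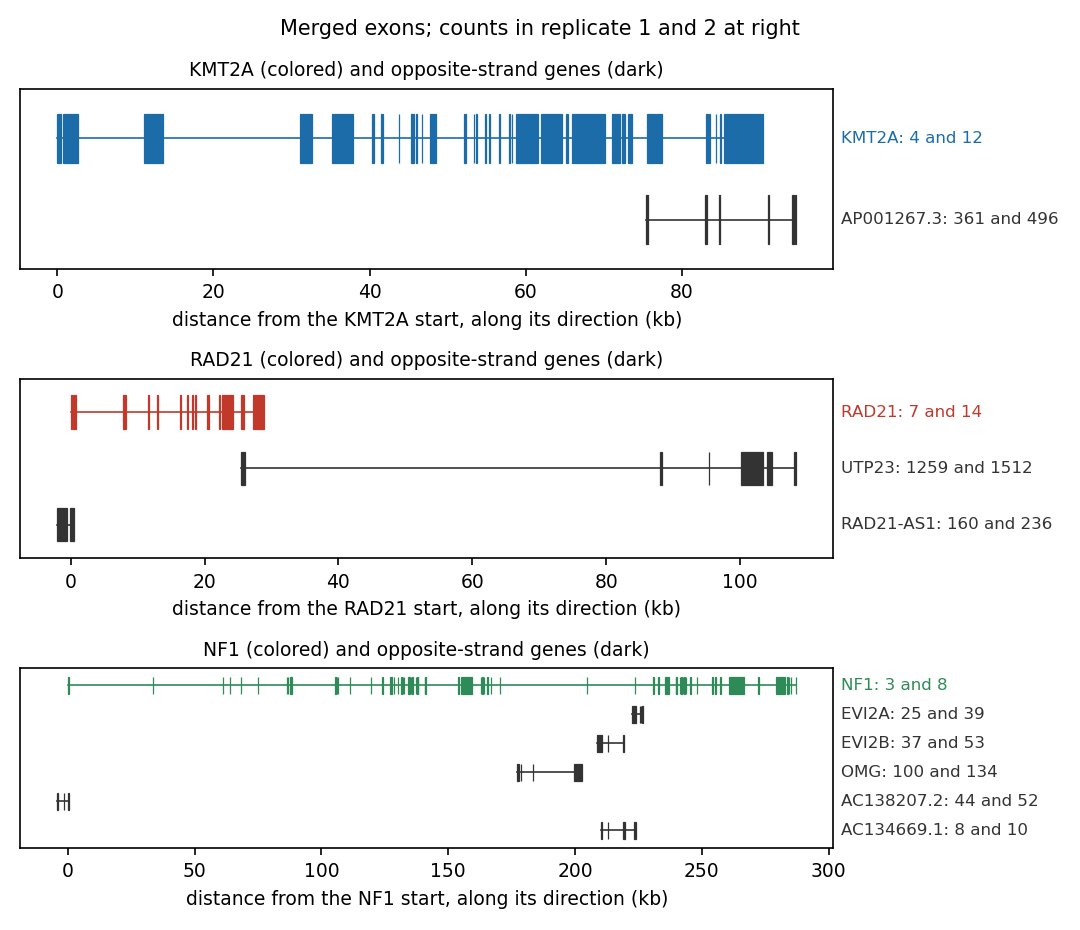
Merged exons (boxes) of KMT2A, RAD21 and NF1 and of their opposite-strand genes, against the distance in kb from the driver's start, with the counts in replicates 1 and 2 at the right. In each locus the driver's own row held fewer counts than every gene drawn opposite it, by the least at NF1, with 3 and 8 counts against 8 and 10 for AC134669.1.

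Cohesin is the ring that holds sister chromatids together and shapes chromatin loops, and its 4 genes held a median of 12 counts over both libraries, near the 11 of all coding drivers. RAD21, the subunit that closes the ring, held 7 and 14 counts, the core subunit genes SMC1A 4 and 9 and SMC3 0 and 1, and STAG2, a subunit bound to RAD21, 3 and 8. None of the 4 held 10 counts in both libraries. Per kb of exon they held between 0.234 counts (SMC3) and 3.39 (RAD21) over both libraries.

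RAD21 lay opposite the densest protein-coding row of any driver. RAD21 occupies chromosome 8, 116845935 to 116874866, on the minus strand. UTP23 (chromosome 8, 116766503 to 116849463, plus strand), a ribosomal RNA processing factor gene, held 1259 counts in replicate 1 and 1512 in replicate 2, or 528 per kb of exon over both libraries. Among the 3523 protein-coding genes whose exons overlap those of another coding gene on the reverse strand, UTP23 ranked 24 by counts per kb. Its exons covered 518 bases of the 3' part of RAD21's exons, with 1 of RAD21's 3' splice sites, and 110 exonic bases of EIF3H, a translation initiation factor subunit gene with 50 and 69 counts. The shared exonic part with RAD21 was 9.86% of UTP23's exons, so most of UTP23 lies outside RAD21. At the other end of the gene, RAD21-AS1 held 160 and 236 counts, or 197 per kb, and 18.0% of its exons lay over those of RAD21. Both opposite rows thus held more reads per kb than RAD21 itself in each library.

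The other cohesin genes had weaker rows opposite them. RIBC1, which shares 39 exonic bases with SMC1A, held 14 and 20 counts, or 11.4 per kb against 1.24 for SMC1A. AL121601.1, a long non-coding RNA gene that shares 28 exonic bases with STAG2, held 11 and 14, or 76.7 per kb against 1.34. TENM1, a teneurin gene that shares 241 exonic bases with STAG2, held 0 in both libraries. SMC3 had no opposite-strand gene.

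Of the signalling genes, the receptor and phosphatase genes KIT and PTPN11 held the most counts. KIT, the receptor for stem cell factor, held 28 counts in each library, or 24.4 ± 4.79 CPM (SD, n = 2) and 10.1 counts per kb of exon. PTPN11, the phosphatase SHP2 that acts between receptors and RAS, held 20 and 38, or 24.2 ± 6.13 CPM and 8.26 per kb. Their CPM levels did not differ beyond their spread. The others ranged from NRAS, a RAS GTPase gene, with 0 and 1 counts to NF1, the RAS GTPase-activating protein neurofibromin, with 3 and 8. FLT3, a receptor tyrosine kinase gene, and PPM1D, a phosphatase gene of the DNA damage response, held 1 count in each library, and CBL, a ubiquitin ligase gene for activated receptors, 2 and 5.

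NF1 was overlapped by several genes on the other strand. AC138207.2, an antisense RNA gene at its start, held 44 and 52 counts, or 195 per kb of exon against 0.405 for NF1. EVI2A, a gene for a membrane protein, shares 152 exonic bases with NF1 and held 25 and 39 counts, or 30.9 per kb. AC134669.1 held 8 and 10, or 14.5 per kb. For CBL, the adhesion molecule gene MCAM held 4.04 counts per kb against 0.596. PTPN11 showed the other order, since RPL6, a ribosomal protein gene, held 0 and 2 counts and 0.450 per kb. Reads that map to several places are outside these counts, which can lower genes with near-identical copies such as RPL6. Whether this lowered RPL6 was not tested.

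The transcription factors included the driver with the most counts, WT1. WT1 (chromosome 11, 32387775 to 32435630, minus strand), a zinc finger factor gene that is often highly expressed in leukemia, held 61 counts in replicate 1 and 91 in replicate 2, or 64.4 ± 5.48 CPM (SD, n = 2). It held 37.0 counts per kb of exon, the most of any driver. ETV6, an ETS family repressor gene, held 24 and 33 counts and 24.3 ± 0.671 CPM, and RUNX1, a subunit of core binding factor, 25 and 30 and 23.7 ± 1.62 CPM. These 2 did not differ from each other or from KIT and PTPN11 beyond their spread in CPM. SETBP1, which encodes a SET-binding protein, held 3 and 8 counts, and CUX1, a homeobox factor gene, 0 and 4. CEBPA, a single-exon gene for a factor of granulocyte differentiation, held 0 in both libraries.

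WT1 and WT1-AS showed the other order from KMT2A and RAD21. They overlap head to head over 113 exonic bases, with no 3' splice site of WT1 inside WT1-AS. WT1-AS held 12 and 11 counts, or 10.1 ± 2.58 CPM (SD, n = 2) and 4.14 counts per kb. WT1 exceeded WT1-AS in both libraries, by 5.08 times in replicate 1 and 8.27 times in replicate 2 in raw counts. At CEBPA, 2 antisense RNA genes lie wholly over the exon. AC008738.3 held 4 and 5 counts and AC008738.5 held 6 and 5, or 13.7 and 22.8 per kb, against 0 for CEBPA.

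The remaining drivers were NPM1, the nucleolar phosphoprotein nucleophosmin, with 5 and 6 counts, and DDX41, a DEAD-box helicase gene, with 9 and 20. Neither had a gene on the opposite strand over its span. Per kb of exon they held 2.87 and 6.39 counts.

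**Figure D3:**
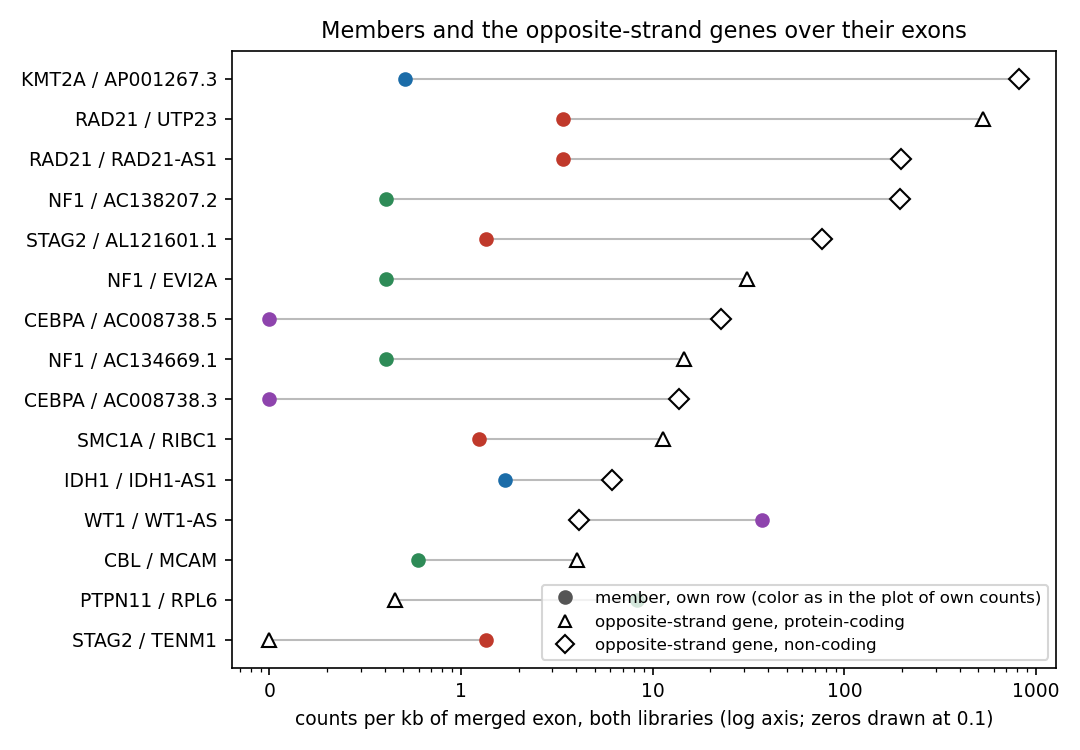
Counts per kb of merged exon over both libraries, on a log axis with zeros at the left edge, for each coding driver (filled circle) and each opposite-strand gene over its exons (open triangle if protein-coding, open diamond if not). The opposite-strand gene lies to the right in 12 of 15 pairs, and to the left for WT1, PTPN11 and the TENM1 pair of STAG2. No matching share over all genes was taken for these pairs.

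Across the 29 coding drivers, 10 (34.5%) overlapped the exons of an annotated gene on the other strand, near the 33.4% of all protein-coding genes. The opposite-strand genes numbered 15, of which 8 were non-coding, and held 1919 counts in replicate 1 and 2421 in replicate 2. UTP23 alone gave 63.8% of these reads, and 1569 counts over both libraries remained without it. The 10 drivers themselves held 297 counts over both libraries, of which WT1 gave 152 and PTPN11 58. The opposite-strand rows held more counts than the driver at 7 of 10 coding drivers (KMT2A, STAG2, RAD21, SMC1A, CBL, NF1 and CEBPA), and at 8 of 11 genes when WT1-AS, opposite WT1, was included. WT1 and WT1-AS have only each other opposite their exons, so including WT1-AS adds a case that the pair fixes in advance. Such an excess held at 57.2% of all protein-coding genes with such a partner. Against that background, the share of 7 of 10 coding drivers is a description only. When protein-coding opposite-strand genes alone were read, the excess held at 4 of 6 coding drivers, and at 5 of 7 genes with WT1-AS included. No share over all genes was taken under that rule. Drivers with and without an opposite-strand gene had median own counts of 12 and 11, against 19 and 3 for all protein-coding genes.

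The number of 3' splice sites that an opposite-strand gene covers was then set beside its counts, a split chosen after the KMT2A values were seen. Of the non-coding genes that overlap coding exons of the reverse strand, 2122 covered no site and held a median of 17.3 counts per kb (quartiles 0.771 and 88.5). The median was 33.4 for 1183 genes with 1 site, 75.0 for 331 with 2, and 90.5 for 269 with 3 or more (quartiles 2.54 and 366). Protein-coding genes in the same position showed medians of 7.53, 14.2, 33.4 and 48.6. The quartiles are wide, and genes are not independent, so these are descriptions with no test. Overlap length and the counts of the gene across were not held equal between these classes. Whether the reads came from the covered sites was not tested. Of the 15 genes opposite the coding drivers, 5 lay above the upper quartile of their own class. They were AP001267.3 and UTP23, which covered sites, and RAD21-AS1, AC138207.2 and EVI2A, which covered none. Another 6 lay below the median of their class. Of the 5 genes that covered a site, the other 3, MCAM, IDH1-AS1 and TENM1, were among these. Quartiles and medians by definition set the share of a class that lies beyond them, so some genes of any set lie there. The counts of 5 and 6 among 15 genes were not tested against those shares and are descriptions only. Since the split was chosen with the KMT2A locus seen, the place of AP001267.3 in it is no separate sign.

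**Figure D4:**
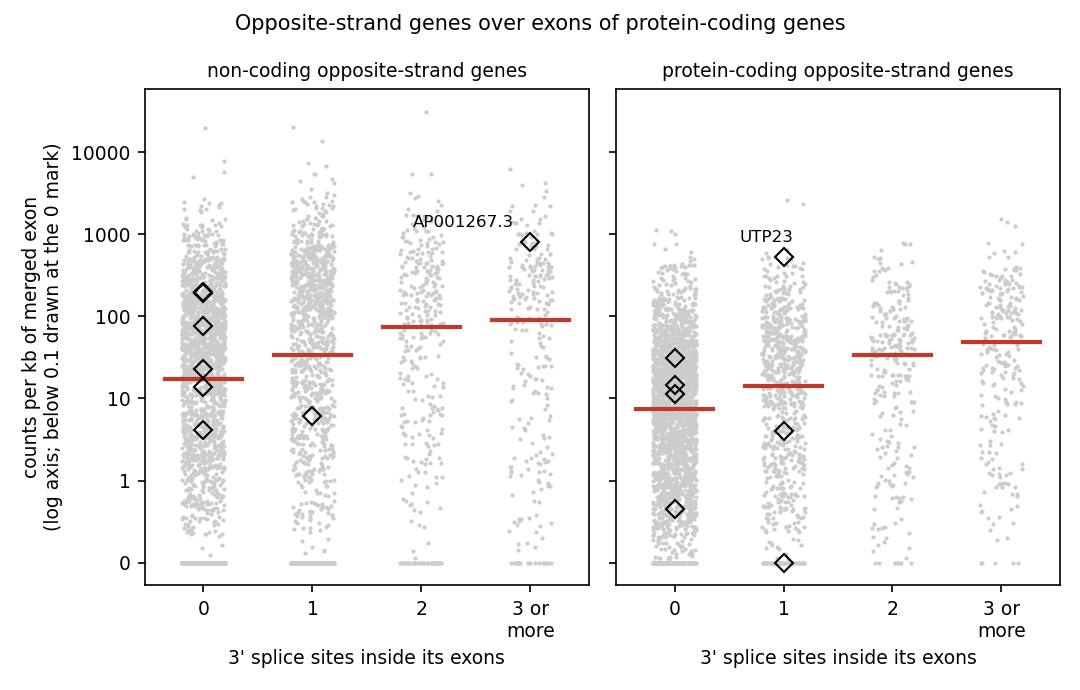
Counts per kb of merged exon (log axis) of all genes whose exons overlap a coding gene's exons on the reverse strand, by how many 3' splice sites their exons cover, with red bars for medians and open diamonds for genes opposite the drivers. The medians go from 17.3 to 90.5 in non-coding and from 7.53 to 48.6 in protein-coding genes.

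The replicates were compared gene by gene with an exact two-sided binomial test at the scaled library sizes, adjusted by Benjamini-Hochberg over the 8983 genes that reached 10 counts in both libraries. It called 45 genes (0.501%) and none of the 9 genes described here that entered it. The lowest adjusted p among them was 0.312, for TET2, whose unadjusted exact p of 0.00653 was the only 1 of the 9 below 0.05. Over all genes tested, 769 (8.56%) had an unadjusted p below 0.05. The edgeR exact test with a common dispersion called 9 genes in all and 0 of these. Its dispersion was estimated from the same 2 libraries taken as 1 group, so it absorbs differences between them. Its lack of calls is therefore no separate sign of agreement. At scaled library size 19 of the 30 genes were higher in replicate 2, 10 in replicate 1 and CEBPA was equal. Of all protein-coding genes with any count, 55.8% were higher in replicate 2. Being between libraries of a single group, the binomial test says nothing about a condition and takes in counting error alone.

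**Figure D5:**
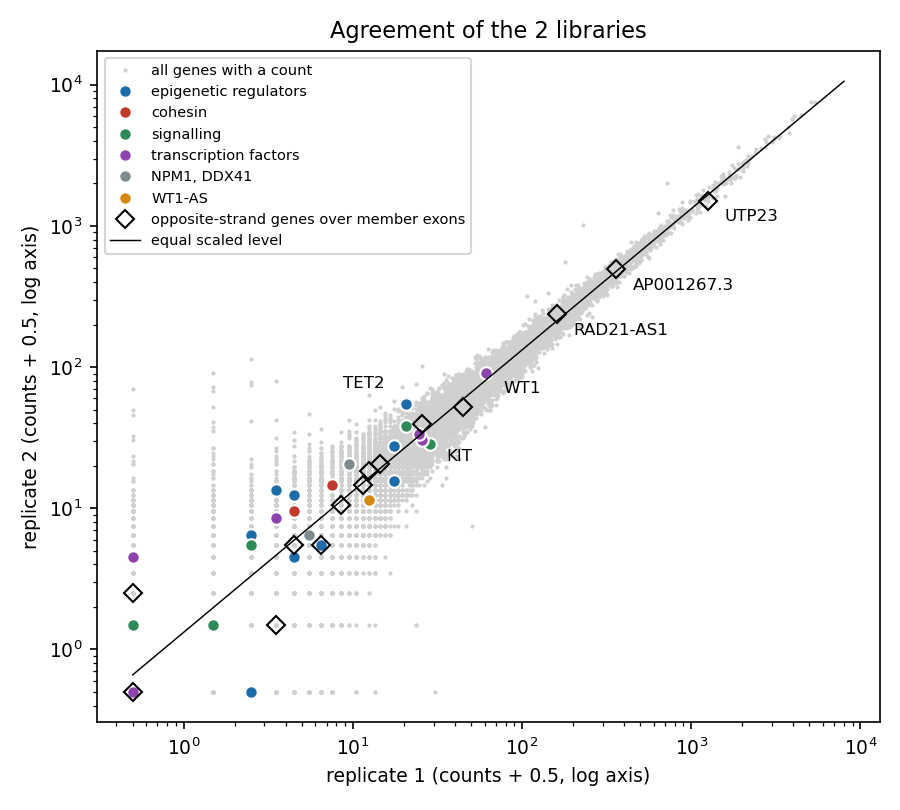
Counts plus 0.5 in replicate 2 against replicate 1, both on log axes, for all genes with a count (grey), the 30 genes by group (colored circles) and the opposite-strand genes over their exons (open diamonds), with a line where scaled levels are equal. UTP23, AP001267.3 and RAD21-AS1 lie close to the line, and TET2, with 20 and 54 counts, lies above it.

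A list of 101 paralogs and partners of the drivers, all found in the table, was read in the same way. Of these, 32 (31.7%) reached 10 counts in both libraries, beside 24.8% of all protein-coding genes. They were 11 of 32 epigenetic regulators, 6 of 15 cohesin genes, 10 of 29 signalling genes, 5 of 19 transcription factors and 0 of 6 others. None of these 32 differed between the replicates in the exact binomial test after adjustment. Opposite-strand rows exceeded the gene at 19 of 31 partners (61.3%) that had any, near the 57.2% of all protein-coding genes. The signalling gene RASA1, a RAS GTPase-activating protein, held 343 and 524 counts, opposite the cyclin gene CCNH with 203 and 314. HRAS, a RAS GTPase gene, held 179 and 224 with no gene opposite its exons. The cohesin gene STAG1, the paralog of STAG2, held 81 and 89, opposite the carboxylase subunit gene PCCB with 180 and 291. The histone demethylase gene KDM2B held 111 and 191, opposite RNF34 with 90 and 161.

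By group, the opposite-strand rows held more counts at 6 of 11 epigenetic, 2 of 5 cohesin, 4 of 8 signalling and 7 of 7 transcription factor partners with such a gene, beside the 57.2% of all protein-coding genes. FLI1, an ETS factor of megakaryocytes, held 55 and 63 counts and the antisense RNA gene SENCR opposite it 279 and 367. MYB, a factor of blood progenitors, held 20 and 34 and MYB-AS1 opposite it 481 and 585. RUNX2, the paralog of RUNX1, held 34 and 51 with no gene opposite its exons.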

How the data were processed

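U2AF2 eCLIP of 2 HEL replicates was read from the raw counts per gene that the authors deposited. The tools cutadapt and STAR 2.7.0f and the build GRCh38.p10 are named per the submitters' processing notes. How reads were counted, on which strand, with which annotation and with what handling of duplicates or molecular identifiers is not given in the sources used here. Remaining duplicates, or counting on another strand, would change these values. Tallies of reads not assigned to a gene for any reason, 98.3% of all reads in each library, stayed out of library sizes and tests. Of the uniquely mapped reads, 97.3% in replicate 1 and 97.4% in replicate 2 fell on no annotated feature as counted. Reads that mapped to several places were 22.1% in replicate 1 and 20.7% in replicate 2.

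Identifiers without version were matched to GENCODE 29 (GRCh38). The authors may have counted on other gene models. Of the genes, 99.5% had a model. Exons of all transcripts of a gene were merged, and opposite-strand overlaps of at least 1 base were found with bedtools 2.31.1. A 3' splice site is the end of any annotated intron of at least 30 bases. CPM used TMM factors (1.01 and 0.987, from genes that reached 10 counts in both libraries) of edgeR 4.0.16 under R 4.3.3, and log2 CPM a prior count of 2. The exact binomial test used scipy 1.17.1 and a threshold of 0.05, and was tested on simulated data. With 1 group the quasi-likelihood test had no contrast. Alternatives were DESeq2 1.42.0 size factors, other minimum and prior counts, other overlap rules and each library alone. The named genes are all 30 members, their opposite-strand genes with at least 10 counts (others are named where a count of genes needs them) and up to 3 leading partners of each group. The text leaves out some genes of that rule. The members and lists were chosen with earlier results of these data known.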

Additional observations from a re-analysis of the deposited data

How the results depend on the processing

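Genes that reached 10 counts in both libraries numbered 9 of 30, 13 at a minimum of 5 and 6 at 20, and between 9 and 14 when either library was read alone. The opposite-strand rows held more counts at 8 of 11 genes, with WT1-AS included here and in the settings that follow. With protein-coding opposite-strand genes alone it was 5 of 7, per kb of exon 9 of 11, and with introns included 10 of 18. A share over all protein-coding genes, 57.2%, was taken for the main setting only, and its like value is the 7 of 10 coding drivers. The other settings have no such share beside them. The median log2 CPM of the coding drivers, 2.69, was 2.37 with a prior count of 0.5 and 4.68 among those that reached 10 counts in both libraries. With that filter the epigenetic regulators moved from 2.92 to 4.34, the signalling genes from 2.17 to 4.68 and the transcription factors from 3.63 to 4.70, because low genes leave the median, and the cohesin genes gave no value since none passed. The signalling genes had 1.67 with a prior count of 0.5, where the added count sets the level of genes near 0. No member was called between the replicates with DESeq2 size factors, without the filter or by the edgeR exact test, whose dispersion came from the same 2 libraries. No paired analysis was possible because the samples form 1 group. The values of 21 of the 30 genes rest on fewer than 10 counts in at least 1 library, and counting error is wide there.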

Other observations

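Introns of the drivers also held opposite-strand genes that do not touch their exons. Altogether 23 such genes lay within 10 coding drivers, 16 held any count and 14 held more counts per kb of exon than the driver. Some of these 14 rest on very few reads over a short row, such as AC005086.4 in CUX1, with 1 and 0 counts on 213 exonic bases. No matching share over all genes was taken. The 6 with at least 10 counts in each library lay in TET2, EZH2, NF1 and CUX1. TET2-AS1, an antisense RNA gene within TET2, held 22 and 37 counts, or 110 per kb against 4.49 for TET2. In NF1, the myelin glycoprotein gene OMG held 100 and 134 counts and EVI2B, a gene for a membrane protein, 37 and 53, or 61.0 and 43.4 per kb. CUX1, with 0 and 4 counts of its own, contained the antisense RNA genes AC005086.1 with 20 and 23 and AC005096.1 with 13 and 29. Within EZH2 a small RNA gene of the family RF00017 held 14 and 26 counts. These are values only, with no test, and which strand the reads came from is uncertain here too.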
